A study of Mus musculus with 2 samples.

Results

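The nuclear genes of the mitochondrial respiratory chain were followed across the cell types of the mouse colonic lamina propria, the connective layer under the gut epithelium. The members were all features whose symbol begins with Nduf, Uqcr, Cox4 to Cox8 or Atp5, or is Sdha, Sdhb, Sdhc or Sdhd, leaving out symbols ending in -ps. This gave 93 of 31053 features and 92 symbols, since Atp5o stands on 2 rows. Of the 93, 36 belonged to complex I, 4 to complex II, 8 to complex III, 20 to complex IV and 17 to complex V, and 8 were Ndufaf assembly factors of complex I. Gated cells held at least 50 UMIs, summed over both libraries, for 86 of the 93 rows. The other 7 were Cox4i2, Ndufa4l2, Cox8b, Cox6a2, Cox7b2, Cox8c and the second Atp5o row, and the last 3 had 0 UMIs in every barcode.

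Single-cell RNA was measured in 2 libraries, 1 per genotype, prepared with a 10x Genomics 3′ kit (version 3) that counts molecular identifiers (UMIs). Both came from colonic lamina propria cells of male C57BL/6 mice aged 6 to 8 weeks kept free of specific pathogens. One library is labelled wild type and the other lncly6c deficient, that is, from mice on a C57BL/6J background in which CRISPR-Cas9 removed the long noncoding RNA gene lncly6c (1700016P04Rik) in all cells. The number of pooled animals is not given in the sources used here. The study asked how lncly6c affects macrophage differentiation. In the file names the genotype words are swapped relative to the labels, and 1700016P04Rik itself had 0 UMIs in both libraries (which allows up to 0.128 per 1000000 UMIs in the first and 0.0548 in the second), so it checks nothing. Groups are therefore called by their labels, and every difference between the libraries would change sign under the file names.

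The libraries held 23384895 and 54773076 UMIs in 3020 and 6133 barcodes (wild-type-labelled first, here and below), and 7 barcode sequences occurred in both. After filters, 2610 and 5890 cells were kept, of which 1702 and 3716 fell into 1 marker-defined cell type, with 7751.5 and 7778.5 median UMIs per cell. Cell types rest on 2 or more gate genes each; 29 and 28 of 36 further markers of the 9 cell types compared were highest in their own type. With 1 library per label there is no replicate and no test, and the 95% intervals given are exact and cover counting error only. These 9 types had 54 (cDC1) to 447 (cDC2) cells in the first library and 75 (Ly6c-low monocytes) to 880 (cDC2) in the second, with 338 and 142 neutrophils.

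The respiratory chain lies in the inner mitochondrial membrane. Complex I (NADH dehydrogenase) and complex II (succinate dehydrogenase) pass electrons to ubiquinone, complex III (cytochrome bc1) passes them to cytochrome c, and complex IV (cytochrome c oxidase) hands them to oxygen. The proton gradient built by complexes I, III and IV drives complex V, the ATP synthase. Complex II is encoded wholly in the nucleus, whereas the other complexes also hold core subunits encoded by mitochondrial DNA, so nuclear and mitochondrial transcripts contribute to the same assemblies. Nuclear respiratory factor 1 (NRF1), ETS-family factors and YY1 are known regulators of such nuclear genes. Neutrophils are known for few mitochondria and a largely glycolytic metabolism.

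Promoter sequence was compared because it is a feature the choice of members did not use. RefSeq promoter windows (GRCm38.p6, 250 bases before to 50 after the gene start) were found for 74 of the 92 symbols. The NRF1 letters, GCGCA and GCGC with any 1 base between them, stood on either strand in 19 of these 74 windows (25.7%), against 1402 of 27025 windows of all genes (5.19%). The YY1 letters AANATGGCG stood in 11 (14.9%, against 2.76%), and the ETS letters CCGGAAGT in 5 (6.76%, against 4.31%). Any of these 3 motifs stood in 33 members (44.6%, against 11.2%): 14 of 32 in complex I, 2 of 3 in complex II, 3 of 5 in complex III, 2 of 14 in complex IV, 9 of 13 in complex V and 3 of 7 assembly factors. The NRF1 letters were thus most frequent by share in complexes II (2 of 3) and V (6 of 13) and least frequent in complex IV (1 of 14). A match describes letters only and is not a binding site.

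The following 30-base stretches show the NRF1 letters in 7 members whose levels are described further on, from complexes I, II and V. Capitals mark the match, and each sequence reads along the strand of its gene.
Sdha: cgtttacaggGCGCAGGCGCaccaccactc
Sdhd: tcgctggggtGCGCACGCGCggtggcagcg
Ndufa11: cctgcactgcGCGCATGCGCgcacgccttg
Ndufs5: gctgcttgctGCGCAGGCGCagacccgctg
Ndufa8: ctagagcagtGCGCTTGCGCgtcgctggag
Atp5g2: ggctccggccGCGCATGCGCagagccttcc
Atp5k: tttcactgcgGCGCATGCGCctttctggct

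In GRCm38.p6 these stretches lie upstream of the RefSeq gene start, at chr13:74350319-74350348 (minus strand) for Sdha, chr9:50603909-50603938 (minus) for Sdhd, chr17:56717692-56717721 (plus) for Ndufa11 and chr4:123718265-123718294 (minus) for Ndufs5. Ndufa8 lies at chr2:36049349-36049378 (minus), Atp5g2 at chr15:102671070-102671099 (minus) and Atp5k at chr5:108434430-108434459 (minus). The first capital stood between 30 bases (Ndufa8) and 98 bases (Sdha, Ndufs5) before the start, and Sdha held 3 matches within 100 bases. GENCODE M21, whose gene coordinates are used elsewhere here, starts some of these genes further upstream: the Ndufa8 and Atp5g2 stretches lie inside its gene models, and 19 bases of the Atp5k stretch do.

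Gated cells gave 240446 and 468587 UMIs of the members. Complexes IV and V held 31.4% and 31.1% of them, complex I 24.8%, complex III 10.4%, complex II 1.69% and the assembly factors 0.702%, although complex I has the most members. The 10 members with the most UMIs held 34.4% of the total. Over all gated cells, Atp5e, the epsilon subunit of the ATP synthase, stood at 758 and 610 CPM (UMIs of the gene per 1000000 UMIs of those cells), and Cox4i1, the common isoform of a regulatory subunit of complex IV, at 683 and 694. These values are 3′ counts and carry no factor for gene length.

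The sum of the members was highest in cDC1, the cross-presenting dendritic cells, and lowest in neutrophils in both libraries. It stood at 18324 CPM (95% interval 18075 to 18577) and 16794 (16621 to 16969) in cDC1. In neutrophils it stood at 7662 (7486 to 7840) and 7076 (6779 to 7382), so cDC1 lay 2.39-fold and 2.37-fold above them. The other dendritic cells came next, with 16518 and 14544 in cDC2 and 15110 and 14363 in mature dendritic cells. Ly6c-high monocytes, the cells that enter the gut from blood, held 14434 and 13091, Ly6c-low monocytes 13334 and 13226, and macrophages 12011 and 11099. T cells held 11859 and 13209, and B cells 10021 and 11257. Counting intervals overlapped between macrophages and T cells in the wild-type-labelled library. In the deficient-labelled library they overlapped between cDC2 and mature dendritic cells, among both monocyte types and T cells, and between B cells and macrophages.

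**Figure D1:**
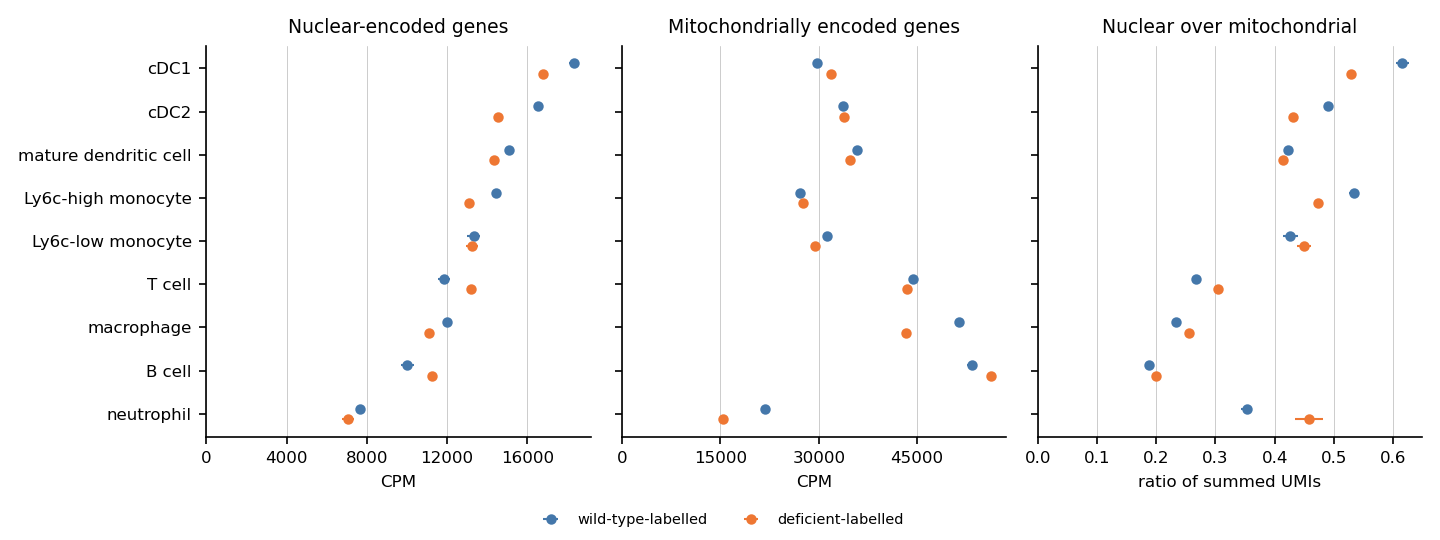
Levels by cell type, with the wild-type-labelled library in blue and the deficient-labelled one in orange: left, summed nuclear members, and centre, the 13 mitochondrially encoded genes, both in CPM; right, the ratio of the 2 sums; bars are 95% counting intervals. Among the 9 types shown, the nuclear sum is highest in cDC1 and lowest in neutrophils, whereas the mitochondrial sum is highest in B cells.

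Depth differed between the cell types: median UMIs per cell were 19816 and 17142 in cDC1 but 2724.5 and 2112.5 in neutrophils. Among cells of 2000 to 5000 UMIs, a window set after seeing the data, neutrophils were again the lowest, at 6735 and 6989, and cDC2 stood at 15123 and 11392. The order among the higher types was not kept there: T cells stood at 9762 and 11579, mature dendritic cells at 11149 and 11071 (7 and 18 cells) and Ly6c-high monocytes at 11722 and 11084. This window held 0 and 2 cDC1, so the position of cDC1 was not tested at matched depth. Per cell, the median member level was 17806 and 16277 CPM in cDC1, 9552 and 9653 in macrophages and 6892 and 7035 in neutrophils, the same order as the sums of these 3 types. The full order was not kept: B cells, at 9599 and 10692, and T cells, at 11101 and 11489.5, stood above macrophages in both libraries. By the sums of the wild-type-labelled library, macrophages stood above both. Neutrophils also held few ribosomal protein UMIs, 50280 and 50905 CPM against 208914 and 229139 in cDC1; with mitochondrial and ribosomal protein genes taken out of the total, cDC1 stood 2.92-fold and 2.998-fold above neutrophils.

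The other cell types had fewer than 50 cells in at least 1 library. The 58 eosinophils of the wild-type-labelled library held 10090 CPM, with an interval overlapping that of B cells. The 7 eosinophils of the deficient-labelled library held 7864. In the deficient-labelled library fibroblasts held 14292 and NK cells or ILC1 14043, next below mature dendritic cells with overlapping intervals between neighbours. In the wild-type-labelled library 23 fibroblasts held 16461 and 34 NK cells or ILC1 13490. The 17 and 23 epithelial cells held 29321 and 39778, above every immune type, but from few cells.

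The 13 mitochondrially encoded protein genes did not follow the order of the nuclear members. Their sum over cells of all depths was highest in B cells among the 9 types, at 53343 and 56194 CPM, and was 51342 and 43344 in macrophages and 44357 and 43467 in T cells. It was 29768 and 31801 in cDC1, 27069 and 27653 in Ly6c-high monocytes, and lowest in neutrophils at 21724 and 15458. The 58 eosinophils of the wild-type-labelled library stood above B cells, at 56109 (54476 to 57778). The first place of B cells was lost among cells of 2000 to 5000 UMIs, where B cells held 55463 and 56963, macrophages 91825 and 61318, cDC2 56748 and 65593 and mature dendritic cells 76850 and 59455. By the rule of 1.5-fold in both libraries used below, 8 of the 13 genes were higher in B cells (23.1% of all genes). In neutrophils 12 were lower (32.2% of all genes).

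Over cells of all depths, the ratio of nuclear to mitochondrial UMIs in these 9 types ran from cDC1, at 0.616 and 0.528, down to B cells, at 0.188 and 0.200, a 3.28-fold and 2.64-fold span. Ly6c-high monocytes stood at 0.533 and 0.473 and macrophages at 0.234 and 0.256, so these myeloid cells lay on opposite sides of the range in both libraries. Ly6c-low monocytes (0.426 and 0.450) and cDC2 (0.490 and 0.431) lay nearer to Ly6c-high monocytes, and T cells (0.267 and 0.304) nearer to macrophages. Against the mitochondrial genes of the same complex, complex I stood at 0.825 and 0.685 in Ly6c-high monocytes and at 0.277 and 0.310 in macrophages. For complex III the 2 values were 1.13 and 0.850 against 0.361 and 0.381, for complex IV 0.281 and 0.261 against 0.138 and 0.149, and for complex V 0.880 and 0.778 against 0.404 and 0.445. Every complex with mitochondrial subunits therefore had the lower ratio in macrophages. Among cells of 2000 to 5000 UMIs the lowest ratio was that of macrophages, at 0.0927 and 0.149, with B cells at 0.175 and 0.189 and cDC2 at 0.266 and 0.174. Ly6c-high monocytes, at 0.244 and 0.317, stood above macrophages there too. Neutrophils, at 0.431 and 0.673 (232 and 78 cells), had the highest ratio there, apart from 2 cDC1 of the deficient-labelled library at 1.06. Over all depths, the pooled mitochondrial level of neutrophils, 21724 and 15458 CPM, lay above their median per cell, 10793 and 9272. Quartiles were 4412 to 34873 and 4330 to 22006, so a pooled ratio does not describe a typical neutrophil.

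The mitochondrial sum is also a common sign of cell damage, and cells with over 20% mitochondrial UMIs were left out. Without that limit 12 and 9 more macrophages entered, in which the ratio was 0.0174 and 0.0229, and the macrophage value became 0.220 and 0.252. No cDC1 and 0 and 1 B cells were removed by the limit. How far damage sets the differences below the limit was not tested.

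The ends of the order were then counted by member. Each member was set against the mean level of the other 8 types and counted where it differed by over 1.5-fold the same way in both libraries. In neutrophils 54 of 86 members (62.8%) were lower, against 32.2% of all 11323 genes measured, and 1, Ndufaf7, was higher (11.3% of all genes). The median member stood at −1.19 and −0.98 on the log2 scale, against −0.66 and −0.13 over all genes. In cDC1 32 members (37.2%) were higher, against 16.1% of all genes, and 0 lower (20%), with medians of 0.65 and 0.53 against 0.00 and −0.06. By single gene, cDC1 was the highest type for 56 of the 86 members in both libraries, and neutrophils the lowest for 48. Both held for 35 of 86 members (40.7%).

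In the remaining types the share of members called was below that of all genes, though some medians lay apart. The median member stood at 0.39 and 0.24 in cDC2, against −0.15 and −0.12 over all genes. It stood at 0.17 and 0.17 in mature dendritic cells (−0.33 and −0.24) and −0.52 and −0.23 in B cells (0.00 and 0.08). In macrophages it was near, at −0.11 and −0.19 (−0.16 and −0.15). B cells had 10 members lower (18.0% of all genes) and 1 higher, Ndufaf4 (23.1%), and macrophages 5 lower (16.4%) and 0 higher (11.3%). In cDC2 Cox6b2, Ndufa9 and Cox7a1 were higher (5.53% of all genes), the last from few UMIs, and 0 members were lower (17%). In T cells Cox6b2, Ndufaf3 and Ndufaf7 were lower (17.6%) and Ndufaf4 higher (17.2%). In Ly6c-high monocytes Ndufaf4 and Ndufaf5 were lower (25.8%) and Ndufaf7 higher (8.38%). In Ly6c-low monocytes Ndufaf4 was lower (11.2%) and 0 members higher (6.77%), and in mature dendritic cells Ndufaf7 was lower (22.6%) and 0 higher (6.25%). Some genes of these short lists lie outside the naming rule and were named after their values were seen.

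**Figure D2:**
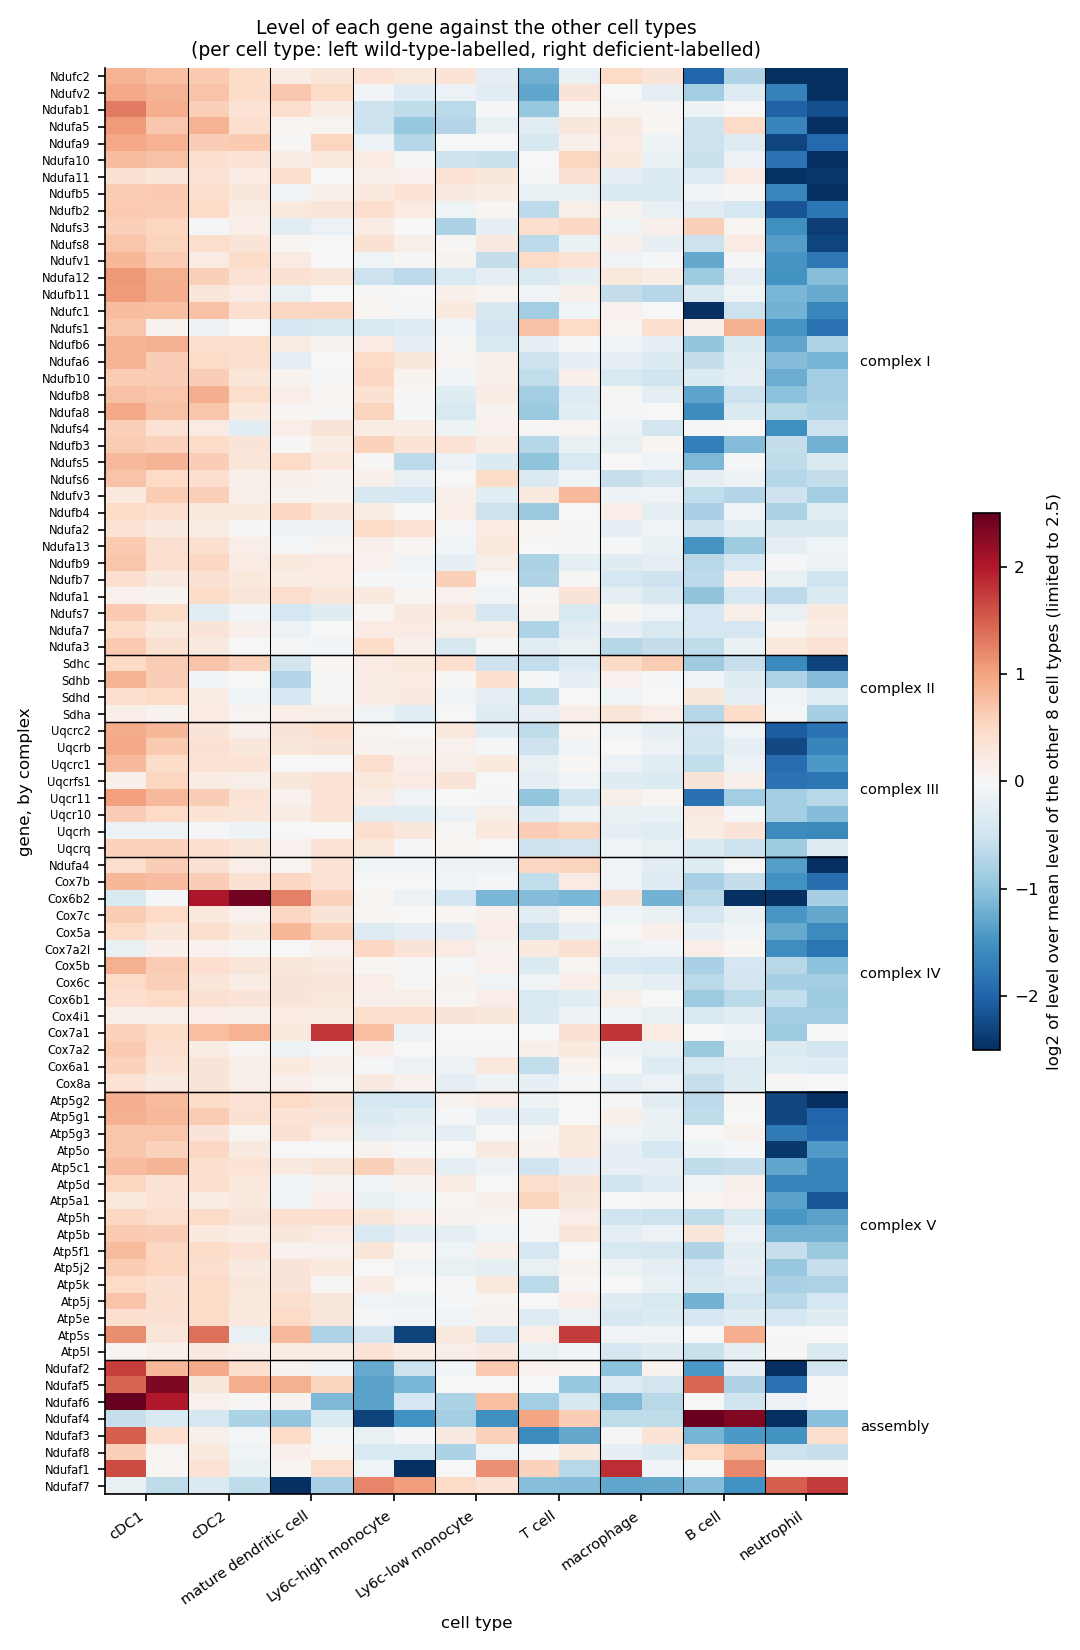
Level of the measured members, all but 1, in each cell type and library, as log2 of its level over its mean in the other 8 types, limited to 2.5 either way, with a zero count set to 3 UMIs (rows, grouped by complex; columns, cell types with the wild-type-labelled library beside the deficient-labelled one; colour, lower in blue and higher in red). The neutrophil columns are lowest for 48 of 86 members and the cDC1 columns highest for 56, while a few assembly factors follow another order.

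Complex I, which oxidises NADH, had 24 of its 36 members lower in neutrophils and 18 higher in cDC1. Its 2 members with the most UMIs, the accessory subunits Ndufa2 and Ndufa6, behaved unlike each other. Ndufa6 stood at 315 and 272 CPM in cDC1 and at 95.3 and 89.1 in neutrophils. Ndufa2 was highest in Ly6c-high monocytes, at 301 and 268, and stood at 178 and 168 in neutrophils, which was not past 1.5-fold below the other types in both libraries. The widest range in complex I belonged to Ndufc2, a subunit of the membrane arm on chromosome 7 (chr7:97400003-97407802, plus strand). It held 159 and 137 CPM in cDC1, 15.9 and 13.2 in neutrophils (15 and 4 UMIs), and 26.3 and 54.5 in B cells, a 10.0-fold and 10.4-fold span. Ndufab1, the mitochondrial acyl carrier protein, went from 109 and 94.9 in cDC1 to 13.8 and 13.2 in neutrophils. Ndufa11, a membrane-arm subunit with the NRF1 letters printed above, was lowest in neutrophils at 15.9 and 16.5 and highest in mature dendritic cells in one library (104) and T cells in the other (101). Ndufa9, near the ubiquinone site, stood at 58.8 and 56.4 in cDC1 and at 7.41 and 0 in neutrophils, where 0 UMIs allow up to 9.90 CPM.

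Complex II links the chain to the citric acid cycle and had the smallest share. Its flavoprotein Sdha and its membrane anchor Sdhd, both with the NRF1 letters printed above, were not past 1.5-fold lower in neutrophils in both libraries. Sdha stood at 79.1 and 74.0 CPM in macrophages, 73.0 and 70.5 in cDC1, 64.6 and 39.6 in neutrophils and 42.1 and 87.7 in B cells. Sdhd stood at 68.6 and 77.5 in cDC1 and at 49.8 and 49.5 in neutrophils. The iron-sulphur subunit Sdhb and the other anchor, Sdhc, were past 1.5-fold lower in neutrophils in both libraries. Sdhb went from 106 and 94.4 in cDC1 to 39.2 and 33.0 in neutrophils, and Sdhc from 49.8 and 41.9 in cDC2 to 11.6 and 6.60 (11 and 2 UMIs). By this rule Sdhb and Sdhc were thus low in neutrophils and Sdha and Sdhd were not. All 4 rest on low counts in the deficient-labelled neutrophils: 10 (Sdhb), 2 (Sdhc), 12 (Sdha) and 15 (Sdhd) UMIs. In that library Sdha was also lowest in neutrophils among the 9 types, so a division of the complex is not shown.

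Complex III had 7 of its 8 members lower in neutrophils, the exception being Uqcrq. Complex III also took a smaller part of the members' UMIs there, 7.71% and 8.67%, and 7.84% in eosinophils, against 11.4% and 10.8% in Ly6c-high monocytes and 13.04% and 11.5% in B cells. Uqcrh, the hinge protein that helps pass electrons to cytochrome c, held 178 and 165 CPM in neutrophils. It was highest in T cells, at 719 and 651, and held 637 and 553 in Ly6c-high monocytes, so its order differed from that of the sum. Uqcrq, a small subunit of the complex, stood at 307 and 275 in cDC1, 124 and 162 in neutrophils and 174 and 140 in B cells.

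Complex IV had 14 members measured, 10 of them lower in neutrophils and 2 higher in cDC1. Cox4i1 was highest in Ly6c-high monocytes, at 827 and 831 CPM, and stood at 691 and 708 in cDC1 and 371 and 373 in neutrophils. Cox8a was among the most even members: 641 and 602 in cDC1, 525 and 528 in neutrophils and 358 and 434 in B cells. Cox6a1 (256 and 224 in neutrophils) and Cox7a2 (203 and 172) were likewise not past 1.5-fold lower there in both libraries. Cox7a2l, which takes part in supercomplexes with complex III, stood at 97.4 and 95.7 in neutrophils against 237 and 337 in cDC1, and Cox7b at 86.8 and 62.7 against 377 and 334. Ndufa4, named for complex I but now placed in complex IV, stood at 336 and 317 in cDC1 and at 107 and 29.7 in neutrophils.

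Of the rarer isoforms of complex IV, 1 was abundant enough to be followed across cell types. Cox6b2 (chr7:4751792-4753094, minus strand), known as the testis form of the subunit Cox6b1, held 336 and 684 UMIs in gated cells. Of these 230 and 420 were in cDC2, a level of 34.1 and 39.9 CPM. It stood at 23.5 and 15.8 in mature dendritic cells, 13.7 and 5.26 in macrophages, 11.8 and 10.1 in Ly6c-high monocytes and 8.91 and 10.8 in cDC1. B cells held 0 and 2 UMIs and T cells 0 and 6, where 0 allows up to 7.89 CPM in B cells and 6.01 in T cells. Its level in cDC2 was above that in cDC1 in both libraries with intervals apart, while Cox6b1 stood at 388 and 338 in cDC2 and 398 and 375 in cDC1. Fibroblasts, 23 and 269 cells, held Cox6b2 at 39.3 and 43.7.

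The other isoforms were rarer still. Cox7a1 had 48 and 136 UMIs, of which 69 in the deficient-labelled library came from 23 epithelial cells. Cox4i2 had 6 and 20 UMIs, 13 of them in fibroblasts of the deficient-labelled library, and Ndufa4l2 5 and 12, 9 of them in the same fibroblasts. Cox8b had 4 and 5 UMIs and Cox6a2 3 and 3.

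**Figure D3:**
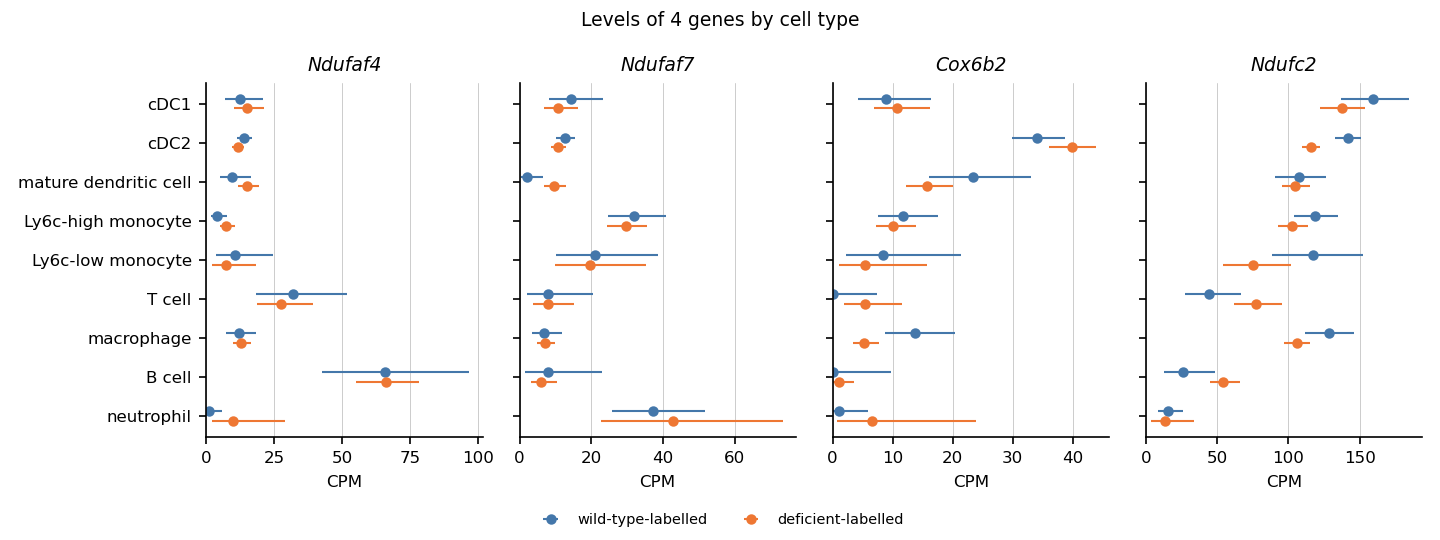
Levels of Ndufaf4, Ndufaf7, Cox6b2 and Ndufc2 by cell type in CPM (points, single libraries; bars, 95% counting intervals; each panel has its own axis). Among the 9 types shown, Ndufaf4 is highest in B cells, Ndufaf7 in neutrophils, Cox6b2 in cDC2 and Ndufc2 in cDC1.

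Complex V had 10 of 16 measured members lower in neutrophils and 5 higher in cDC1. Atp5e was highest at 890 CPM in mature dendritic cells in one library and at 748 in cDC1 in the other, and stood at 507 and 492 in neutrophils. Atp5l, the g subunit of the membrane part, stood at 625 and 532 in Ly6c-high monocytes, 519 and 379 in neutrophils and 387 and 392 in macrophages. Both were therefore among the more even members.

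The 3 genes Atp5g1, Atp5g2 and Atp5g3 encode the same mature c subunit of the proton-driven ring. Atp5g2 was the most abundant by 3′ UMIs in cDC1, at 444 and 452, and fell off to 58.2 and 49.5 in neutrophils. Atp5g1 stood at 246 and 233 in cDC1 and 32.8 and 39.6 in neutrophils, and Atp5g3 at 275 and 231 against 58.2 and 42.9. All 3 were thus low in neutrophils.

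Assembly factors, which build complex I and do not stay in it, had 1 of 8 lower in neutrophils (32.2% of all genes). This was Ndufaf4, called from 1 and 3 UMIs there. This count is limited by depth: Ndufaf1, Ndufaf2, Ndufaf5 and Ndufaf6 had at most 3 UMIs in either library's neutrophils and 0 in the deficient-labelled ones, where the floor of 3 counts is 9.90 CPM. Among the others, Ndufaf4 and Ndufaf7 did not follow the order of the sum. Ndufaf4 (chr4:24898083-24905001, plus strand) stood at 65.7 and 66.1 CPM in B cells and 32.0 and 27.6 in T cells. It stood at 12.0 and 12.9 in macrophages, 3.94 and 7.28 in Ly6c-high monocytes and 1.06 and 9.90 in neutrophils (1 and 3 UMIs). B cells thus had the highest level of this factor among the 9 types; 23 and 269 fibroblasts held 78.6 and 53.5. Ndufaf7 (chr17:78937136-78948052, plus strand), a methyltransferase, ran the other way, at 37.1 and 42.9 in neutrophils (35 and 13 UMIs) and 7.89 and 6.05 in B cells. It stood at 32.0 and 29.7 in Ly6c-high monocytes, 20.9 and 19.7 in Ly6c-low monocytes and 6.83 and 7.08 in macrophages. Its level was therefore higher in both monocyte types than in macrophages, with intervals apart for Ly6c-high monocytes. Ndufaf8 held 42.1 and 45.4 in B cells and 22.2 and 19.8 in neutrophils.

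Between the libraries, the summed members differed by little within each cell type, and the sign depended on the type. The sum was lower in the deficient-labelled library in Ly6c-high monocytes (log2 ratio −0.14, 95% interval −0.16 to −0.12), macrophages (−0.11), neutrophils (−0.11), cDC1 (−0.13), cDC2 (−0.18) and mature dendritic cells (−0.07). It was higher in B cells (0.17, 0.12 to 0.22) and T cells (0.16, 0.11 to 0.20). In Ly6c-low monocytes the interval held 0 (−0.01, −0.06 to 0.04). The mitochondrially encoded sum moved further in neutrophils (−0.49) and macrophages (−0.24), and by 0.03 in Ly6c-high monocytes and 0.10 in cDC1; its part in the members' ratios was not tested. Among cells of 2000 to 5000 UMIs the macrophage ratio was 0.10 and the neutrophil ratio 0.05, so their sign changed, while B and T cells stayed higher and cDC2 stayed lower. A gate on 3 distinct markers also turned the neutrophil ratio, to 0.23.

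**Figure D4:**
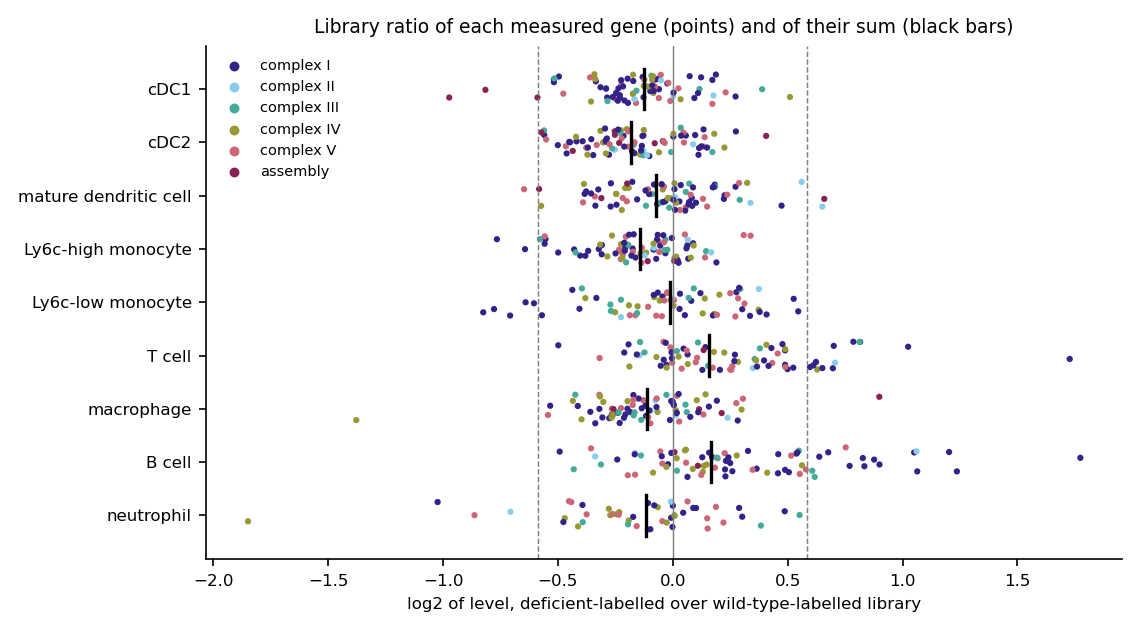
Library ratio of members within each cell type, as log2 of deficient-labelled over wild-type-labelled (small points, single members with at least 50 UMIs; coloured by complex; black bars, the summed members; dashed lines, 1.5-fold; 1 library per label, so no replicate spread). Most members lie slightly below 0 in cDC2 and Ly6c-high monocytes and above 0 in B and T cells.

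Single members moved past 1.5-fold in few cases among myeloid cells. In Ly6c-high monocytes 0 of 79 were higher (9.23% of all genes) and 2 lower (7.64%), although 60 of 79 lay below 0. In macrophages 1 of 80 was higher (9.11%) and 1 lower (5.39%), and in cDC2 0 of 83 were higher (7.12%) or lower (4.41%), with 62 of 83 below 0. Ly6c-low monocytes had 0 of 64 higher (10.0%) and 5 lower (8.88%), and neutrophils 0 of 48 higher (7.80%) and 4 lower (10.4%). In cDC1 0 of 78 were higher (5.65%) and 3 lower (8.85%), and in mature dendritic cells 2 of 80 were higher (15.0%) and 1 lower (6.23%). These counts are near or under the share over all genes. The median member ratio was −0.14 in Ly6c-high monocytes, −0.12 in macrophages and −0.19 in cDC2, against 0.02, 0.04 and 0.03 over all genes.

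B cells had 16 of 76 members higher (21.1%, against 13.8% of all genes) and 0 lower (8.59%), and T cells 13 of 75 higher (17.3%, against 11.2%) and 0 lower (7.67%). Median ratios were 0.23 and 0.22, against 0.00 and −0.00 over all genes. Complex I, with 36 of the 86 measured members, held 12 of the 16 in B cells and 10 of the 13 in T cells. By summed complex, the B cell ratio was 0.35 for complex I (0.24 to 0.46), 0.14 for complexes IV and V and −0.01 for complex III. In T cells it was 0.26 for complex I (0.17 to 0.35), 0.18 for complex IV, 0.11 for complex V and 0.02 for complex III. The 2 lists shared 5 genes, Ndufa8, Ndufb8, Ndufc2, Ndufs8 and Ndufv2. This is 31.3% of the B cell list, against 17.3% of members called in T cells. It is 38.5% of the T cell list, against 21.1% of members called in B cells. The overlap over all genes was not counted. Intervals held 0 for Ndufv2 in B cells and for Ndufa8, Ndufb8 and Ndufs8 in T cells. The calls rest on low counts: over all 9 types 32 member ratios were past 1.5-fold higher, but 3 where a gene needed at least 200 UMIs.

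**Figure D5:**
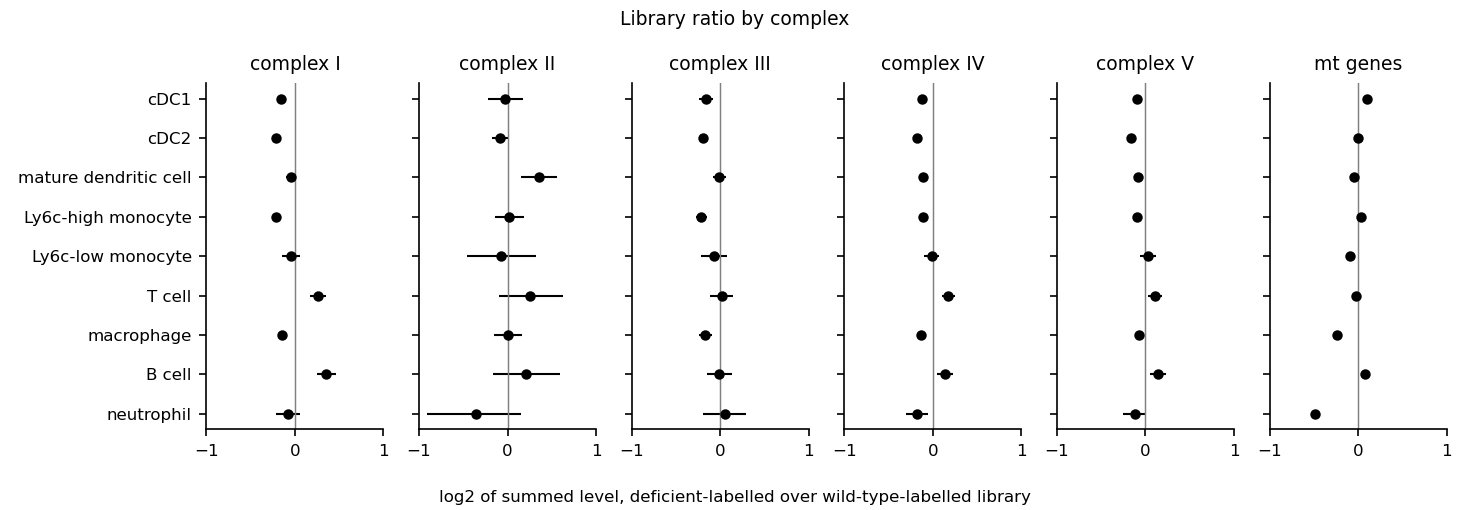
Library ratio of each complex within each cell type, as log2 of deficient-labelled over wild-type-labelled summed CPM, with the mitochondrially encoded (mt) genes as the last panel (points, 1 library per label; bars, 95% counting intervals). Complex I stands highest in B cells (0.35) and T cells (0.26), and complex III is near 0 in both.

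In B cells Ndufc1, a small membrane-arm subunit, stood at 15.8 and 54.0 CPM (6 and 107 UMIs), a log2 ratio of 1.77 (0.61 to 3.25). Ndufa8 stood at 18.4 and 43.4 (7 and 86 UMIs), a ratio of 1.24. In T cells Ndufv2, an iron-sulphur subunit of the NADH-oxidising module, stood at 18.0 and 59.7 (9 and 67 UMIs), a ratio of 1.73 (0.72 to 2.92), and Ndufab1 at 28.0 and 57.0 (1.02). Each of these rests on 14 or fewer UMIs in the wild-type-labelled library. The members with the lowest ratios were Ndufs3 (−0.49, interval holding 0) and Uqcr10 (197 and 146, −0.43) in B cells, and Ndufs7 (−0.50, interval holding 0) and Atp5a1 (414 and 332, −0.32) in T cells.

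Median UMIs per cell were 4421 and 3579 in B cells, 5873.5 and 4705 in T cells and 14315 and 11379 in cDC2. Depth was lower in the deficient-labelled library in all 9 types, and its part in the ratios was not tested. The 77 mitochondrial ribosomal protein genes also stood higher in the deficient-labelled library, at 0.30 in B cells and 0.34 in T cells, whereas the mitochondrially encoded sum differed by 0.08 and −0.03. Of the 8 plasma cell markers, 6 and 8 had UMIs in B cells, with a summed level of 313 and 635 CPM; over the 9 types this list ran from 160 to 313 in one library and from 390 to 1584 in the other. Of the 10 macrophage markers, 6 and 10 had UMIs in T cells, at 34.0 and 375. The part of these in the result was not tested, nor that of free RNA.

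Among monocytes and macrophages, the lowest ratios in Ly6c-high monocytes belonged to the complex I subunits Ndufs5 (65.4 and 38.5 CPM, −0.77) and Ndufb3 (124 and 79.1, −0.64). The highest belonged to the catalytic beta and the delta subunit of the ATP synthase, Atp5b (236 and 298, 0.34) and Atp5d (215 and 266, 0.31). In macrophages Cox6b2 (13.7 and 5.26, −1.38; 24 and 26 UMIs) and Atp5k (177 and 121, −0.54) were lowest, and Ndufaf2 (6.83 and 12.7, 0.90, interval holding 0) and Atp5d (167 and 207, 0.31) highest. In Ly6c-low monocytes 5 of 64 members were called lower (7.81%, against 8.88% of all genes). All 5 belonged to complex I, led by Ndufc1 (105 and 59.1, −0.83) and Ndufb4 (92.2 and 53.7, −0.78). Complex I as a sum stood at −0.04 there, with an interval holding 0 (−0.14 to 0.05). The highest members in Ly6c-low monocytes, Ndufb8 (0.55) and Ndufa8 (0.53), had intervals holding 0. Ndufb3 was called lower in 3 types, both monocyte types and neutrophils, with intervals holding 0 in Ly6c-low monocytes and neutrophils.

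In neutrophils Ndufa4 had the lowest ratio of all, with 107 and 29.7 CPM (101 and 9 UMIs) and a log2 ratio of −1.85 (−3.02 to −0.87). Its UMIs came from 60 of 338 and 6 of 142 cells, and with a gate on 3 distinct markers the ratio was −0.56. The 5 neutrophils with the most Ndufa4 held 32.7% and 88.9% of these UMIs, with up to 13 and 3 in 1 cell. Ndufb3 stood at −1.02 with an interval reaching 0, and Uqcrb (0.55) and Ndufb10 (0.49) were highest with intervals holding 0.

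Among dendritic cells, the 3 members called lower in cDC1 were all assembly factors, including Ndufaf3 (25.8 and 13.2, −0.97) and Ndufaf2 (34.7 and 19.7, −0.82). The summed assembly factors stood at −0.48 (−0.76 to −0.19) in cDC1 and −0.32 in cDC2. Cox7a2l (237 and 337, 0.51) and the Rieske protein Uqcrfs1 (124 and 162, 0.39) were the highest in cDC1. In cDC2 Ndufaf2 (23.0 and 15.5, −0.57) and Uqcr11 (216 and 146, −0.56) were lowest, and Ndufaf5 (0.41, interval holding 0) and Ndufv1 (34.0 and 41.1, 0.27) highest. In mature dendritic cells Atp5k (215 and 137, −0.65) and Ndufaf3 (−0.58, interval holding 0) were lowest, and Ndufaf4 (0.66, interval holding 0) and Sdhb (40.4 and 63.4, 0.65) highest. Complex II as a sum stood at 0.35 (0.15 to 0.56) in mature dendritic cells, and its intervals held 0 in the other 8 types.

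Genes that work beside the chain were counted in the same way, against 16.1% of all genes higher in cDC1 and 32.2% lower in neutrophils. Of 77 mitochondrial ribosomal protein genes, 40 (51.9%) were higher in cDC1 and 50 (64.9%) lower in neutrophils by the same 1.5-fold rule in both libraries. Of 98 cytosolic ribosomal protein genes, 89 (90.8%) were lower in neutrophils. In the same list 32 were higher in B cells (23.1% of all genes) and 37 in T cells (17.2% of all genes). Of 19 electron carriers and inner-membrane carriers, 10 (52.6%) were higher in cDC1 and 8 (42.1%) lower in neutrophils. Among them Cycs, cytochrome c, stood at 446 and 353 CPM in cDC1 and 75.2 and 69.3 in neutrophils. Of 18 citric acid cycle and pyruvate entry genes, 4 (22.2%) were higher in cDC1 and 10 (55.6%) lower in neutrophils, and of 28 further assembly factors 4 (14.3%) and 7 (25%), both under the share of all genes. Among 19 genes of mitochondrial DNA expression and biogenesis, 11 were higher in B cells (23.1% of all genes) and 9 lower in neutrophils (32.2% of all genes). Tfam, a packaging and transcription factor of mitochondrial DNA, stood at 103 and 67.6 in B cells, 40.0 and 33.8 in T cells and 2.12 and 3.30 in neutrophils. Nrf1 stood at 47.3 and 48.9 in B cells and 13.8 and 9.90 in neutrophils, while the coactivator Ppargc1a had 68 UMIs in all gated cells. Hif1a, the oxygen-sensing factor, ran differently, at 219 and 195 in Ly6c-high monocytes and 89.1 and 60.1 in cDC1.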

How the data were processed

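The deposited files hold raw UMI counts per gene and barcode for 2 libraries; per the labels, cells were captured with a 10x 3′ kit. Per the submitters' processing notes, the authors used Cell Ranger and STAR 2.5.1b on mm10, and per the file headers the software version was 3.0.2. No doublet removal is stated in the sources used here and no caller was run. Barcodes with at least 500 UMIs, 200 genes and at most 20% mitochondrial UMIs were kept. A cell took a type when at least 2 gate markers gave at least 3 UMIs and 3 times the UMIs of any other type passed; 606 and 1067 cells passed no gate, and 302 and 1107, with median depths of 13387 and 12563 UMIs, passed several and were left out. The gate thresholds were set after seeing the data, and the members and gene lists were chosen with earlier results of these data known.

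UMIs were summed per type and library and divided by all UMIs of those cells. Sums carry exact Poisson intervals and ratios exact conditional binomial intervals (95%). The 9 types that had 50 or more cells in both libraries entered comparisons, and a gene entered with at least 50 UMIs. A zero count was set to a floor of 3 counts per library before a fold was formed. Named are the 2 members with the most UMIs per complex, tissue isoforms, complex II, the 8 members with the widest range, the 2 highest and lowest library ratios per type, and up to 2 genes of each other list. The method was tested on simulated data.

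Of 93 member rows, 7 overlap another counted gene on the same strand in GENCODE M21, including Cox4i1, Ndufa13 and Ndufb8, so their counts are uncertain, and 28 overlap one on the other strand. The tools were scipy 1.17.1, numpy 2.4.6, pandas 2.3.3, matplotlib 3.10.9 and Python 3.11.15. Alternatives changed the mitochondrial limit, gate, summing, depth, total, gene minimum and fold. Values of 1 member are not reported here by name, though counts and sums include it.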

Additional observations from a re-analysis of the deposited data

Results flagged for a closer look

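The library ratio of the summed members went opposite ways in different cell types, with log2 values of 0.17 in B cells and 0.16 in T cells against −0.14 in Ly6c-high monocytes, −0.11 in macrophages, −0.11 in neutrophils, −0.13 in cDC1, −0.18 in cDC2 and −0.073 in mature dendritic cells. With 1 library per label the difference between cell types was not tested.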

How the results depend on the processing

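No paired analysis was possible because each label has 1 library. Of the summary folds and counts under the alternatives, 63 moved by less than their counting interval (counts: by less than 1.5-fold) and 17 by more. The cDC1 over neutrophil fold of 2.39 in the wild-type-labelled library was 2.78 with a gate on 3 markers, 2.31 as a mean over cells, 2.56 without the deepest 5% of cells and 2.92 with a total without mitochondrial and ribosomal protein genes. In the deficient-labelled library the fold of 2.37 became 2.11 with 3 markers and 2.998 without those genes. The cDC1 over B cell span of the nuclear to mitochondrial ratio, 3.28, was 2.73 as a mean over cells; in the other library 2.64 became 2.58 with a 10% mitochondrial limit, 2.52 with 3 markers and 2.78 without the deepest cells. Cell types with a higher sum in the deficient-labelled library numbered 2, but 4 with 3 markers and 5 among cells of 2000 to 5000 UMIs, the last chosen after seeing the data. Summed over types, 32 member ratios were called higher and 16 lower; these became 3 and 3 with at least 200 UMIs, 8 and 3 with a fold of 2, and the lower calls became 36 with 1 UMI in each library as the minimum. The summed library ratio was higher in B and T cells in 10 of 10 settings, in Ly6c-low monocytes in 5 of 10, in neutrophils in 2 of 10 and in macrophages in 1 of 10, and lower in Ly6c-high monocytes, cDC2 and mature dendritic cells in 10 of 10. Depth limits the neutrophil values (median 2724.5 and 2112.5 UMIs per cell) and those of eosinophils (1291.5), and cDC1 could not be compared at matched depth.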
